A study of Homo sapiens with 12 samples.

Results

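Genes of protein folding and quality control in the endoplasmic reticulum (ER), and of the unfolded protein response that regulates them, were followed in HEK293T cells, a human embryonic kidney line, with and without an introduced membrane protein. The 36 genes were chosen by name, by a rule that uses no measured value, although earlier results of these data were known. They are ER chaperones and their co-chaperones, disulfide and proline isomerases, parts of ER-associated degradation and translocation, the 3 stress sensors and the transcription factor XBP1. All 36 were found among the 41878 gene rows, each in a single row, and all 36 were among the 18030 rows expressed well enough to be tested. Cells of all 4 groups were transfected with 1 µg of plasmid by Effectene, and RNA was taken from 3 biological replicates per group. Vector fed cells carried the control vector and stayed in 10% serum, and vector starved cells carried it and spent 4 h in 0% serum. TRPML3 fed and TRPML3 starved cells carried the plasmid for TRPML3 (gene MCOLN3), which forms a cation channel in endolysosomal membranes, under the same serum conditions. The libraries hold RNA of all cells of a culture, so a change in the share of transfected cells and a change in RNA per cell cannot be told apart, and no protein was measured.

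Membrane and secreted proteins enter the ER through the SEC61 channel and fold there with the help of chaperones such as BiP (HSPA5) and GRP94 (HSP90B1). When unfolded protein builds up, the sensors IRE1 (ERN1), PERK (EIF2AK3) and ATF6 become active. ATF6 and spliced XBP1 then raise transcription of chaperone and degradation genes, while PERK acts through ATF4 and CHOP. HSPA5, DNAJB9, HERPUD1 and SDF2L1 are widely used readouts of this response. The comparison of TRPML3 with vector asks whether overexpression of a membrane protein is accompanied by higher levels of these genes.

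ATF6 and XBP1 act through short promoter elements, which are shown here because they are the sequence feature known to link many of the 36 genes. RefSeq promoter sequences (GRCh38.p14), each from 250 bases before to 50 bases after a start, were found for 33 of the 36 genes. The ER stress response element (ERSE, CCAAT followed by CCACG after 9 bases) was searched on both strands and was present in 8 of the 33 genes, against 0.0916% of 27305 genes with such a sequence (0.0769% of 35116 promoters). ERSE-II (ATTGG followed by CCACG after 1 base) was present in 3 of 33, against 0.0696% of genes. None of these 33 genes held exact matches to both, and near matches were not counted. The element TGACGTG was present in 3 of 33 (DNAJC10, TXNDC5 and HYOU1, in HYOU1 overlapping an ERSE-II) against 2.40%. The ATF4 and CHOP element TGATGCAAT was present in 0 of 33 against 0.293%. A match is a description of letters, and binding was not measured. The sites are written 5′ to 3′ on the strand that carries the element, with its fixed letters in capitals.
HSPA5 ERSE: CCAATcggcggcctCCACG
HSP90B1 ERSE, far: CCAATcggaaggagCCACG
HSP90B1 ERSE, near: CCAATcgcgccgcaCCACG
CALR ERSE: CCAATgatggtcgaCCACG
CANX ERSE, a single site within reach of several starts: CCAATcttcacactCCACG
PDIA6 ERSE: CCAATgagccgcagCCACG
ERO1B ERSE: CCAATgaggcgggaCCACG
CRELD2 ERSE: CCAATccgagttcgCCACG
XBP1 ERSE: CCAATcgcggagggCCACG
HERPUD1 ERSE-II: ATTGGgCCACG
SDF2L1 ERSE-II: ATTGGtCCACG
HYOU1 ERSE-II, both copies: ATTGGaCCACG

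The 250 bases before the start are printed for 4 genes described at length below, with any ERSE or ERSE-II in capitals. HSPA5 (chr9:125241344-125241593, minus strand) carries an ERSE whose last base lies 48 bases before the start. HERPUD1 (chr16:56931892-56932141, plus strand) carries an ERSE-II. MANF (chr3:51385041-51385290, plus strand) and DNAJB9 (chr7:108569624-108569873, plus strand) hold neither of these exact letters in this window.
HSPA5: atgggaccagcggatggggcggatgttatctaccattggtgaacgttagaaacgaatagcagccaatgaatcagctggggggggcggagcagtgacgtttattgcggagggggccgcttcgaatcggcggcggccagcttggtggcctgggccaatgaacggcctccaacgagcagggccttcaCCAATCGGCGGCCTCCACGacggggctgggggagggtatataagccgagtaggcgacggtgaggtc
HERPUD1: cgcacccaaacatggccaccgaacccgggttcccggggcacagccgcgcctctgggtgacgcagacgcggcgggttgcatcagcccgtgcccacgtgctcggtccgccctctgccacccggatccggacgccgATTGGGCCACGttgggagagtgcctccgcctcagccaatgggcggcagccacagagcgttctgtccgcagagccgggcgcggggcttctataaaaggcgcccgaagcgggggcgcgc
MANF: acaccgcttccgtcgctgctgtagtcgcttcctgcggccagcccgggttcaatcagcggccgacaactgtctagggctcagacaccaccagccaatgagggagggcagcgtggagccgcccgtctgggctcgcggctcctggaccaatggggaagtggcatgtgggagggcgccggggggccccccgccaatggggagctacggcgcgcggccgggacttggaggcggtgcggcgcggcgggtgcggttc
DNAJB9: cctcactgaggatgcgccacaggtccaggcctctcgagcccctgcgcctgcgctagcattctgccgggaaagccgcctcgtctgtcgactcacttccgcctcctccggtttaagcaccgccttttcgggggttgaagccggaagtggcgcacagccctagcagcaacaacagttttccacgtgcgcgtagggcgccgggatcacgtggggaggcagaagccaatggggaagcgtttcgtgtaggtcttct

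Levels are given as CPM, read counts scaled to a common total by TMM-normalised library sizes. Library totals ran from 33101540 to 43700547 counts, and 3 counts correspond to at most 0.0906 CPM. MCOLN3 was at 9.30 to 18.4 CPM in the 6 vector libraries. It was at 6208, 4926 and 39952 CPM in TRPML3 fed replicates 1, 2 and 3, and at 41342, 58195 and 16888 CPM in TRPML3 starved replicates 1, 2 and 3. All TRPML3 libraries thus carried the transcript, at levels that differed widely within each group. HEK293-like markers such as LIN28B (99.3 to 244 CPM) and VIM (182 to 585 CPM) were present, whereas PAX2 was at 0.838 to 5.32 CPM. Of markers of other cells, TTR was at 0 in all libraries and PTPRC reached 0.0979 CPM, while COL3A1 was at 14.8 to 21.7 CPM. The mitochondrial share of counts followed the replicate number, with 3.42 ± 0.693% (SD, n = 4) in replicates 1, 1.47 ± 0.705% in replicates 2 and 5.29 ± 0.476% in replicates 3.

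Libraries of replicate 3 often ran opposite to replicates 1 and 2 in serum response, which bears on every comparison below. For 17.5% of all tested genes, starved minus fed had one direction in replicates 1 and 2 of both plasmids and the opposite direction in replicate 3 of both. The same held for 7 of the 36 ER genes, a share near that background. Shares with replicate 1 or 2 as the opposite one were not counted, so these shares alone do not set replicate 3 apart. With each library or replicate number left out in turn, genes called for average starvation ran from 0 to 810, highest without replicate 3. MCOLN3 was also higher in starved than in fed TRPML3 libraries for replicates 1 and 2 and lower for replicate 3. The labels were used as given, and values without replicate 3 are given where leaving it out changed a call at the adjusted threshold or the sign of a group's median.

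The 36 genes together took 1.44 ± 0.230% of counts (SD, n = 3) in vector fed, 1.38 ± 0.0537% in vector starved, 1.60 ± 0.296% in TRPML3 fed and 1.41 ± 0.221% in TRPML3 starved libraries. Per kilobase of exon, the most abundant were the chaperones HSPA5 (mean over 12 libraries 695 CPM per kb), HSP90B1 (681), calreticulin CALR (542) and calnexin CANX (475), followed by the proline isomerase PPIB (167). HSPA5 and HSP90B1 lay within each other's spread, since HSPA5 varied 4.67-fold and HSP90B1 2.65-fold among libraries. The lowest was DERL3, a derlin of ER-associated degradation, at 0.159 CPM per kb. The translocon subunit SEC61B (50.6 to 69.0 CPM) and the sensor ATF6 (118 to 156 CPM) were among the steadiest. The oxidase ERO1A was the most variable, with a 287-fold range between the lowest and highest library, and 14 of the 36 ranged over more than 3-fold. The isomerase PDIA6 ran from 61.1 to 618 CPM, with its lowest value in vector starved replicate 1. UGGT1, which checks glycoprotein folding, ran from 20.1 to 193 CPM, with its lowest value in vector fed replicate 1. In both genes the other libraries of the same group were several-fold higher. Reads of 13 of the 36 genes may be shared with an overlapping gene above 5 CPM, among them DNAJB9 (PNPLA8 and THAP5), CRELD2 (ALG12), DERL2 (MIS12) and HSP90B1 (C12orf73), and are uncertain to that extent. The SD of log2 CPM within groups had a median of 0.38 over the 36 genes, against 0.55 over all tested genes, a comparison not matched for level. Among genes of similar level, this SD stood at percentile 91.4 for HSPA5, 94.1 for UGGT1 and 98.7 for PDIA6. It stood at percentile 1.7 for SEC61B and 11.8 for ATF6, so the 36 genes were not uniformly steadier than genes of their level.

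**Figure D1:**
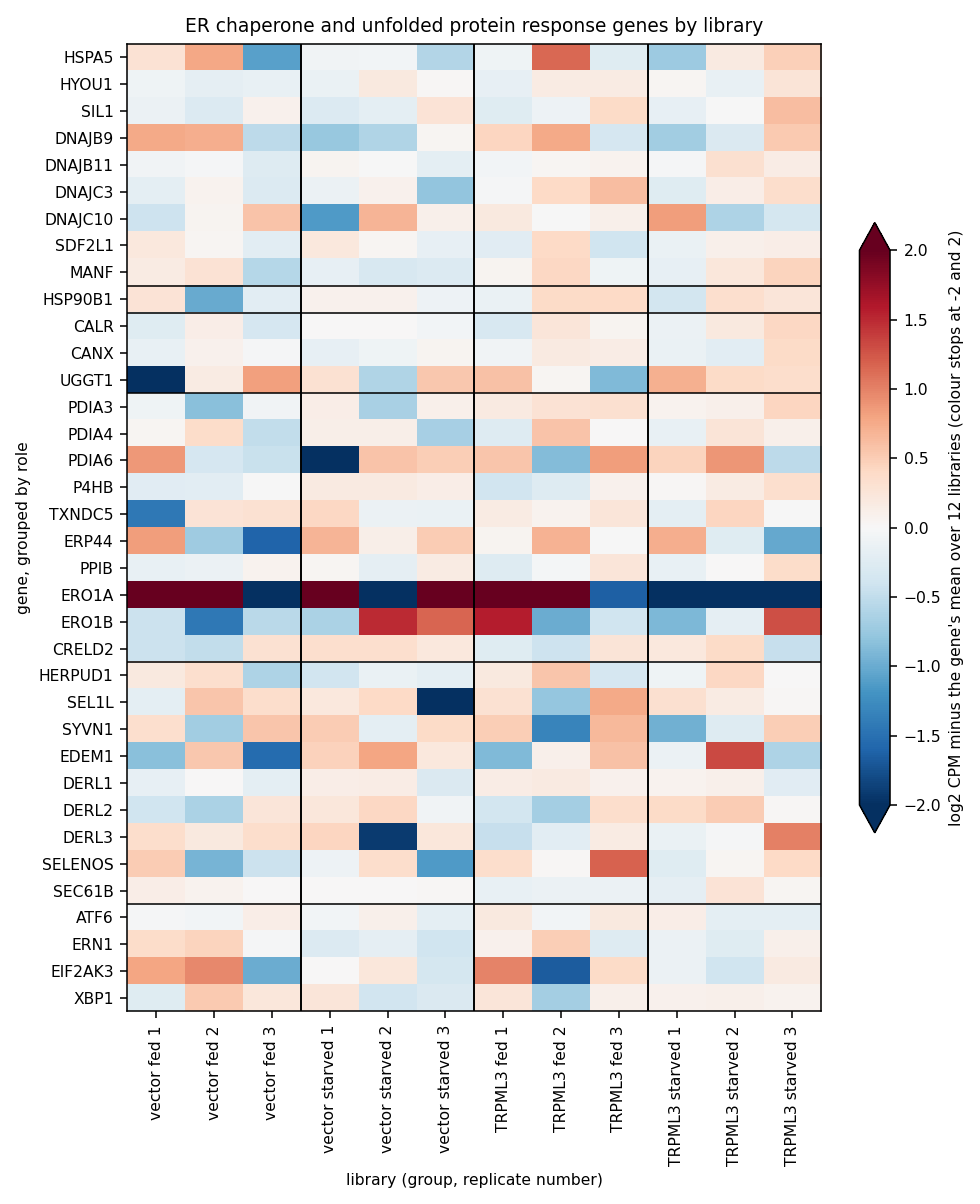
Level of each of the 36 genes in each library, as log2 CPM minus the gene's mean over the 12 libraries (red higher, blue lower, colour stopping at -2 and 2). Rows are ordered by role with lines between roles, and columns are the 4 groups of 3 replicates. ERO1A alternates between the ends of the scale, and HSPA5 and DNAJB9 are lowest in the fed groups in replicate 3.

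In fed cells, no ER gene passed the test of TRPML3 against vector, although more of the genes were higher than lower. The count at an adjusted p under 0.05 in edgeR's quasi-likelihood test was 0 of 36, against 0.0111% of all genes, and limma-trend and the DESeq2 Wald test also called 0 of 36. An unadjusted p under 0.05 was reached by 1 of 36, against 2.21% of all genes. The median log2 fold change was 0.13 over the 36 genes and -0.0095 over all genes, and 26 of 36 were above 0, against 48.9% of all genes. Without replicate 3 the median was 0.046, with 24 of 36 above 0, against 49.5%.

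BiP, the ER Hsp70 encoded by HSPA5, was at 3052, 4251 and 1177 CPM in vector fed replicates 1, 2 and 3 and at 2344, 5497 and 2099 CPM in TRPML3 fed replicates 1, 2 and 3. Replicate 2 was the highest and replicate 3 the lowest in both groups, and the groups overlapped. The log2 fold change was 0.23 ± 0.49 (SE), which is 1.17-fold with a 95% interval of 0.551 to 2.49, and did not pass (adjusted p = 1, edgeR's quasi-likelihood test). The ER Hsp90, HSP90B1, was at 3752, 1542 and 2676 CPM in vector fed and 2827, 4054 and 4084 CPM in TRPML3 fed libraries. Only its first replicate was lower with TRPML3, and the log2 fold change of 0.46 ± 0.29 did not pass (adjusted p = 1, edgeR).

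Among the disulfide isomerases, PDIA3, which acts on glycoproteins bound by calreticulin and calnexin, had the smallest p in fed cells. Its level was 467, 279 and 475 CPM in vector fed and 563, 609 and 619 CPM in TRPML3 fed libraries. The lowest TRPML3 fed library exceeded the highest vector fed library. The log2 fold change was 0.55 ± 0.24 (unadjusted p = 0.0459, adjusted p = 1, edgeR). PDIA4, another isomerase of this family, was at 378, 475 and 262 CPM in vector fed and 309, 547 and 370 CPM in TRPML3 fed libraries, which overlapped.

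The next smallest p-values in fed cells belonged to DNAJC3, a co-chaperone that also inhibits PERK, and to the derlin DERL1. DNAJC3 was at 25.0, 30.2 and 23.7 CPM in vector fed and 28.3, 37.9 and 44.0 CPM in TRPML3 fed libraries, so 1 TRPML3 library lay within the vector range. DERL1 was at 134, 151 and 131 CPM in vector fed and 167, 171 and 160.1 CPM in TRPML3 fed libraries, with no overlap. The log2 fold changes were 0.48 ± 0.29 and 0.26 ± 0.16, both with an adjusted p = 1 (edgeR). Groups did not overlap for 4 of the 36 genes: PDIA3 and DERL1 were higher with TRPML3 (against 3.22% of all genes) and DERL3 and SEC61B were lower (against 3.87%).

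DNAJB9, a co-chaperone induced through XBP1, was at 107, 105 and 44.1 CPM in vector fed and 85.4, 107 and 50.1 CPM in TRPML3 fed libraries. HERPUD1, a membrane component of ER-associated degradation, was at 99.8, 109.6 and 56.5 CPM against 99.9, 128 and 69.0 CPM. SDF2L1, a stress-induced luminal cofactor, was at 14.9, 13.3 and 11.2 CPM against 11.1, 16.9 and 9.81 CPM. For these 3 genes, replicate 3 was the lowest of its group in both, and the groups overlapped. XBP1 was at 69.8, 119 and 96.2 CPM against 97.6, 51.8 and 88.6 CPM, and CALR at 1232, 1596 and 1154 CPM against 1164, 1727 and 1512 CPM, again with overlap.

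**Figure D2:**
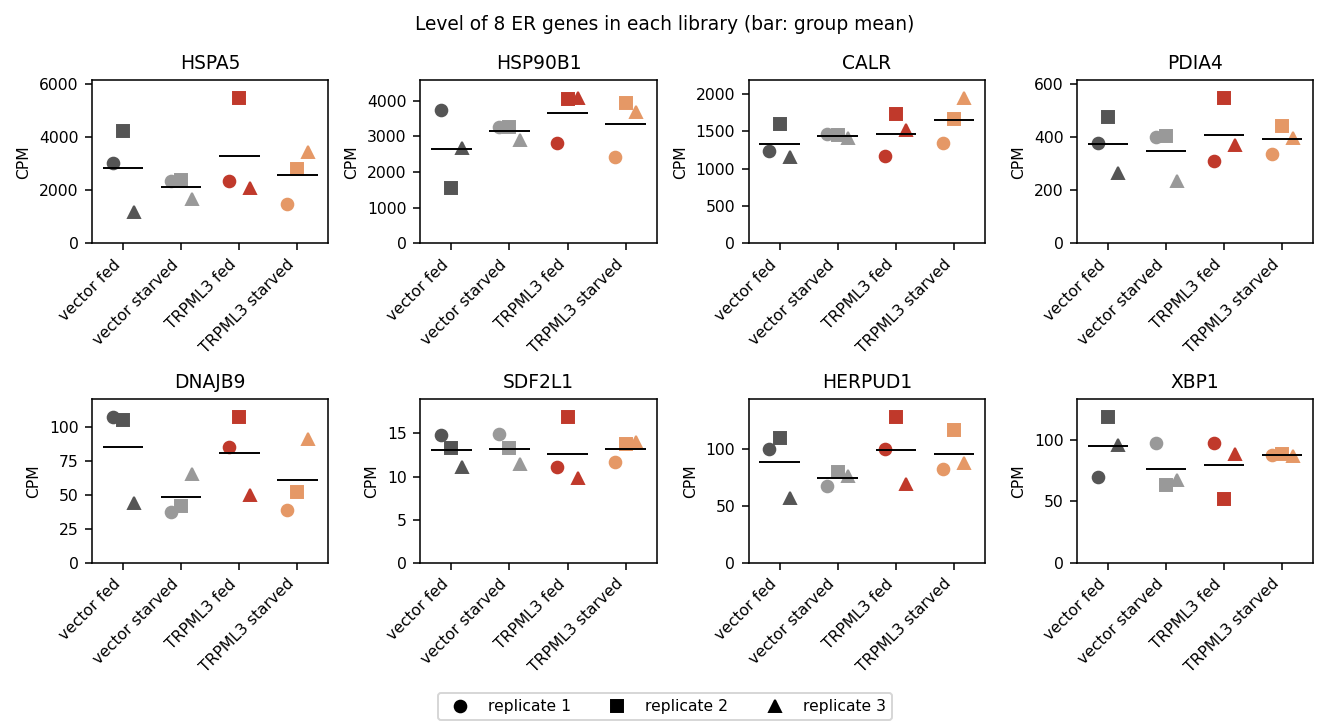
Level in CPM (vertical axis from 0) of 8 genes in the 12 libraries, by group. Circles, squares and triangles are replicates 1, 2 and 3, and bars are group means. The ranges of TRPML3 fed and vector fed libraries overlap for all 8 genes, and among starved libraries those of HERPUD1 alone do not.

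In starved cells, again no ER gene passed for TRPML3 against vector in edgeR's quasi-likelihood test (0 of 36, against 0.00555% of all genes), nor in limma-trend. The DESeq2 Wald test called 1, ERO1A. At an unadjusted p under 0.05, 1 of 36 passed in the quasi-likelihood test, against 2.20% of all genes. The median log2 fold change was 0.11, against -0.0060 over all genes, and 26 of 36 were above 0, against 49.2%. Without replicate 3 the median was -0.024 and 16 of 36 were above 0, against 48.5%. With scaling by library size only, the median over all genes was -0.11, a shift of -0.10 against TMM, the median of the 36 genes relative to it was 0.11, and 18 of 36 were above 0. In fed cells that scaling left 21 of 36 above 0, with the median over all genes at -0.079. The fed median of the 36 genes relative to all genes was 0.13, and 0.14 with TMM.

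The 1 gene was ERO1A, the oxidase that reoxidises protein disulfide isomerase. It was at 96.0, 1.68 and 107 CPM in vector starved replicates 1, 2 and 3 and at 0.817, 1.08 and 1.27 CPM in TRPML3 starved replicates 1, 2 and 3. All TRPML3 starved libraries were low, but vector starved replicate 2 was nearly as low. In fed cells its level was 124, 175 and 0.918 CPM with vector and 187, 235 and 4.69 CPM with TRPML3, so that each fed group had 2 high libraries and a low replicate 3. The log2 fold change in starved cells was -6.01 ± 1.98 (unadjusted p = 0.0116, adjusted p = 1, edgeR), and DESeq2 gave an adjusted p = 0.0102. Its within-group SD of 3.13 (log2) was above that of 99.4% of all tested genes.

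HSPA5 was at 2367, 2383 and 1656 CPM in vector starved and 1497, 2815 and 3468 CPM in TRPML3 starved libraries. TRPML3 replicate 1 was the lowest of all 6 and TRPML3 replicates 2 and 3 the highest. The log2 fold change was 0.28 ± 0.49, or 1.21-fold with a 95% interval of 0.571 to 2.58, and did not pass (adjusted p = 1, edgeR). HSP90B1 was at 3272, 3277 and 2898 CPM against 2411, 3923 and 3678 CPM, and CALR at 1458, 1456 and 1404 CPM against 1338, 1662 and 1947 CPM. In both, TRPML3 replicate 1 lay below all vector starved libraries and replicates 2 and 3 above them.

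MANF, a secreted ER stress-induced cofactor of BiP, had the second smallest p in starved cells. It was at 95.1, 85.0 and 87.9 CPM in vector starved and 94.5, 124 and 145 CPM in TRPML3 starved libraries. The log2 fold change was 0.44 ± 0.25 (adjusted p = 1, edgeR). The co-chaperone DNAJB11 followed, at 164, 156 and 138 CPM against 155, 196 and 175 CPM, with a log2 fold change of 0.20 ± 0.15 (adjusted p = 1, edgeR). For both genes TRPML3 replicate 1 lay inside the vector range.

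HERPUD1 was at 66.8, 79.5 and 76.2 CPM in vector starved and 82.1, 116 and 87.4 CPM in TRPML3 starved libraries. It was the 1 gene of 36 that was higher in TRPML3 starved libraries without overlap (against 3.02% of all genes), and ERO1A was the 1 that was lower (against 3.56%). HERPUD1 was higher with TRPML3 in 6 of 6 pairs of libraries of the same replicate number and serum state, but by only 0.0013 on the log2 scale in the first fed pair. No share of all genes with this pattern is given, so the count has no background to be read against. The average log2 fold change of HERPUD1 was 0.26 ± 0.20 (unadjusted p = 0.231, adjusted p = 1.00, edgeR). DNAJB9 was at 37.5, 42.1 and 65.1 CPM against 39.1, 51.8 and 91.0 CPM, and PDIA4 at 399, 402 and 234 CPM against 334, 439.8 and 396 CPM. SDF2L1 was at 15.0, 13.3 and 11.5 CPM against 11.7, 13.8 and 14.1 CPM, and XBP1 at 97.6, 63.4 and 67.6 CPM against 88.1, 88.9 and 86.7 CPM. These 4 genes overlapped between the groups.

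Averaged over fed and starved cells, 0 of 36 genes passed for TRPML3 in edgeR's quasi-likelihood test, against 0.0111% of all genes, and 0 in limma-trend and the DESeq2 Wald test. At an unadjusted p under 0.05, 2 of 36 passed, against 2.62% of all genes. They were PDIA3 (log2 fold change 0.43 ± 0.17) and ERO1A (-2.75 ± 1.20), and DNAJC3 followed (0.40 ± 0.20, unadjusted p = 0.0707, adjusted p = 1.00, edgeR). The median was 0.12 against -0.011 over all genes, 27 of 36 were above 0 against 48.1%, and without replicate 3 the median was 0.031 with 22 of 36 above 0 against 49.1%. PDIA3 was at 0.48 ± 0.23 without replicate 3 (unadjusted p = 0.0828), no longer under 0.05, and DNAJC3 at 0.12 ± 0.18. In DNAJC3 the replicate 3 pairs differed by 0.89 and 1.14 on the log2 scale, and the other 4 pairs by -0.13 to 0.33. For HSPA5 the average was 0.25 ± 0.35, a 1.19-fold difference with a 95% interval of 0.699 to 2.03, so a doubling lay inside the interval, and without replicate 3 it was -0.014 ± 0.33 (0.11 in fed and -0.14 in starved cells). HSP90B1 had an interval of 0.880 to 1.66-fold, CALR of 0.921 to 1.38-fold and DNAJB9 of 0.682 to 1.75-fold.

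**Figure D3:**
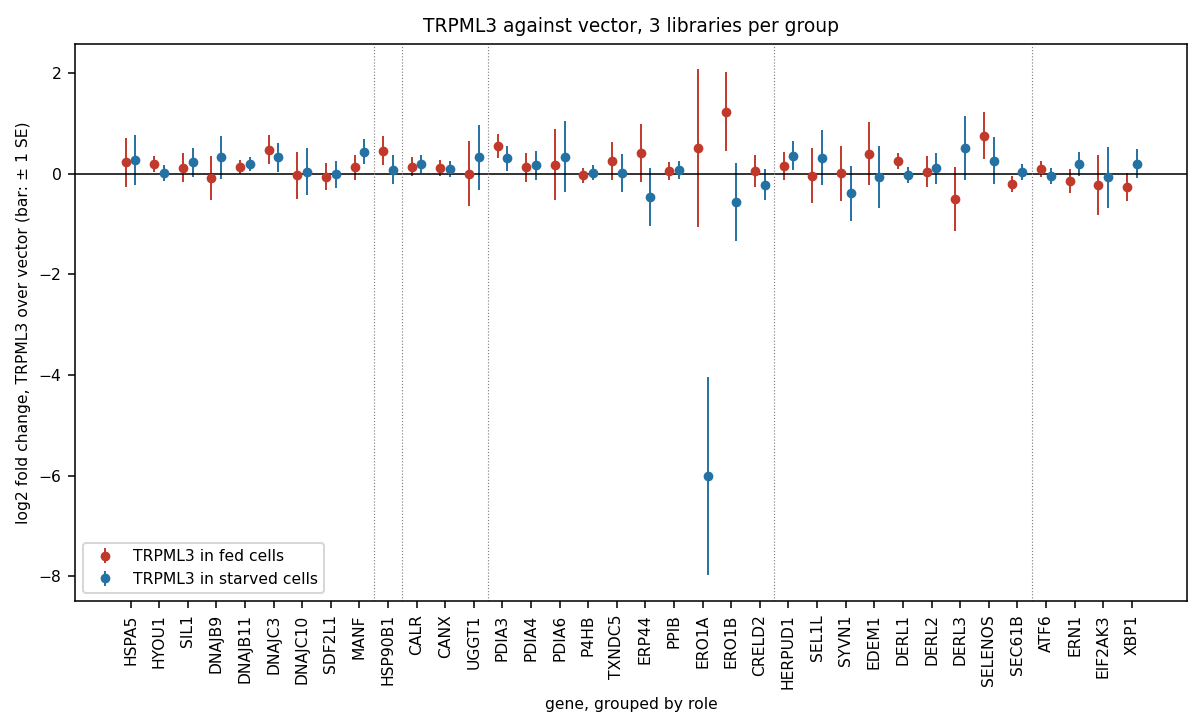
Log2 fold change of TRPML3 over vector (vertical axis) for the 36 genes in fed (red) and starved (blue) cells, with bars of ± 1 SE from the fit to 12 libraries. Dotted lines separate roles. ERO1A in starved cells, at -6.01, lies far below all other points.

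By role, the median fed and starved log2 fold changes with TRPML3 were 0.13 and 0.23 for the 9 genes of the Hsp70 system, and 0.11 and 0.20 for the 3 of the lectin cycle. They were 0.22 and 0.023 for the 10 disulfide and proline isomerases, and 0.041 and 0.11 for the 9 genes of degradation and translocation. The 3 sensors and XBP1 had -0.18 and 0.080. The 11 genes with an ERSE or ERSE-II had medians of 0.16 and 0.10, and the other 25 had 0.097 and 0.11, so the order of the medians was not the same in both states. Without replicate 3 the medians were 0.052 and 0.14 for the Hsp70 system, 0.090 and 0.045 for the lectin cycle, 0.15 and -0.042 for the isomerases, -0.039 and 0.052 for degradation and translocation, and -0.21 and -0.0044 for the sensors and XBP1. The genes with an ERSE or ERSE-II then had 0.11 and -0.040, and the other 25 had 0.023 and -0.0022. The signs of several of these medians thus rest on replicate 3, and differences between roles and sets were not tested.

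Serum starvation was compared with feeding because the study's title names starvation-induced autophagy. In vector cells, 0 of 36 genes passed in edgeR's quasi-likelihood test (against 0.00555% of all genes), in limma-trend and in the DESeq2 Wald test. Before adjustment, 1 of 36 had a p under 0.05, against 4.44% of all genes. The median log2 fold change was 0.0017 against -0.0054, and 18 of 36 were above 0, against 49.4%. That gene was ERN1, which encodes the sensor IRE1. It was at 35.4, 37.4 and 26.9 CPM in vector fed and 22.7, 24.1 and 20.8 CPM in vector starved libraries, with no overlap. The log2 fold change was -0.56 ± 0.24 (adjusted p = 1.00, edgeR).

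P4HB, a protein disulfide isomerase, was the 1 gene higher in vector starved libraries without overlap (against 5.36% of all genes), and ERN1 the 1 that was lower (against 4.57%). P4HB was at 290, 291 and 334 CPM in vector fed and 381, 380 and 371 CPM in vector starved libraries, a log2 fold change of 0.31 ± 0.15 (adjusted p = 1.00, edgeR). ERO1B, a second ER oxidase, was at 11.6, 5.78 and 10.8 CPM against 10.1, 44.1 and 35.1 CPM, where only replicate 1 was not higher. Its log2 fold change of 1.67 ± 0.80 did not pass (adjusted p = 1.00, edgeR).

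In TRPML3 cells, starvation also gave 0 of 36 in edgeR's quasi-likelihood test (against 0% of all genes) and in limma-trend, while the DESeq2 Wald test called ERO1A (adjusted p = 0.000237). ERO1A and P4HB, 2 of 36, had an unadjusted p under 0.05, against 5.71% of all genes. The median was -0.052 against 0.011, and 16 of 36 were above 0, against 51.2%. ERO1A had a log2 fold change of -7.07 ± 2.07 (adjusted p = 0.812, edgeR) and was the only one of the 36 without overlap, lower in starved cells (1 of 36, against 5.66% of all genes, and 0 of 36 higher, against 5.56%). P4HB was at 259, 281 and 357 CPM in TRPML3 fed and 342, 380 and 427 CPM in TRPML3 starved libraries, so fed replicate 3 lay within the starved range. DERL2, a derlin, followed with 0.49 ± 0.31 (adjusted p = 0.900, edgeR).

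The starvation responses of TRPML3 and vector cells did not differ for any of the 36 genes at an adjusted p under 0.05 (0 against 0% of all genes in edgeR's quasi-likelihood interaction test, and 0 in limma-trend and the DESeq2 Wald test). At an unadjusted p under 0.05, 1 of 36 passed, ERO1A at -6.52 ± 2.45, against 2.07% of all genes. The median was 0.050 against 0.00032 over all genes, and 21 of 36 were above 0, against 50.1%. Without replicate 3 the median was -0.040 against -0.018, and 17 of 36 were above 0, against 8765 of 18052 genes. ERO1B (-1.80 ± 1.11) and DERL1 (-0.28 ± 0.23) had the next smallest p, both at an adjusted p of 1.00. For HSPA5 the difference was 0.051 ± 0.70, with a 95% interval of 0.356 to 3.01-fold.

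Averaged over both plasmids, starvation gave 0 of 36 in edgeR's quasi-likelihood test, against 0% of all genes, 0 in limma-trend and 1, ERO1A, in the DESeq2 Wald test (adjusted p = 0.0150). At an unadjusted p under 0.05, 3 of 36 passed, against 9.45% of all genes: P4HB (0.33 ± 0.11), ERO1A (-3.81 ± 1.25) and ERN1 (-0.39 ± 0.17). Their adjusted p-values were 0.373, 0.391 and 0.503, and 18 of 36 genes were above 0, against 50.7%. The co-chaperone DNAJB11 and P4HB were the 2 genes of 36 that differed in the same direction, higher in starved cells, in all 6 pairs of starved and fed libraries of the same number, against 7.74% of all genes.

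Without the replicate 3 libraries, 3 of the 36 genes passed for average starvation in edgeR's quasi-likelihood test, against 4.49% of 18052 genes. DNAJB9 fell by 1.24 on the log2 scale (SE 0.15, adjusted p = 0.0259), from 107, 105, 85.4 and 107 CPM in the 4 fed libraries to 37.5, 42.1, 39.1 and 51.8 CPM in the 4 starved libraries. DERL2 rose by 0.91 ± 0.14 (adjusted p = 0.0314), from 46.5, 39.5, 47.3 and 38.2 CPM to 72.1, 81.5, 80.0 and 86.7 CPM. P4HB rose by 0.42 ± 0.081 (adjusted p = 0.0488). CRELD2, a disulfide isomerase induced by ER stress, was at 14.0, 13.5, 16.0 and 14.2 CPM fed and 24.0, 24.1, 22.0 and 24.8 CPM starved, and missed the threshold (adjusted p = 0.0507, edgeR). The calls were lost with the replicate number as a block (adjusted p of 0.0618 for DNAJB9, 0.0672 for DERL2 and 0.0813 for P4HB). They were also lost when any 1 of these 8 libraries was left out as well, where the adjusted p of DNAJB9 lay between 0.0539 and 0.0949, and ERO1A passed when vector starved replicate 1 was left out.

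In replicate 3 the same genes stood the other way. DNAJB9 was at 44.1 CPM in vector fed and 65.1 CPM in vector starved replicate 3, and at 50.1 and 91.0 CPM in TRPML3 fed and starved replicate 3. DERL2 was at 72.8 and 58.5 CPM with vector and 77.8 and 62.5 CPM with TRPML3, and CRELD2 at 23.4 and 22.0 CPM with vector and 22.7 and 13.7 CPM with TRPML3. A fit with separate starvation terms for replicate 3 and for replicates 1 and 2, added after these values were seen, called 4 of 36 genes in replicates 1 and 2 (DNAJB9, DERL2, P4HB and CRELD2), against 8.53% of all genes. In replicate 3 it called 0 of 36, against 1.54%. The difference between the terms passed for 3 of 36, against 8.61% of all genes. These shares are near or below those of all genes.

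**Figure D4:**
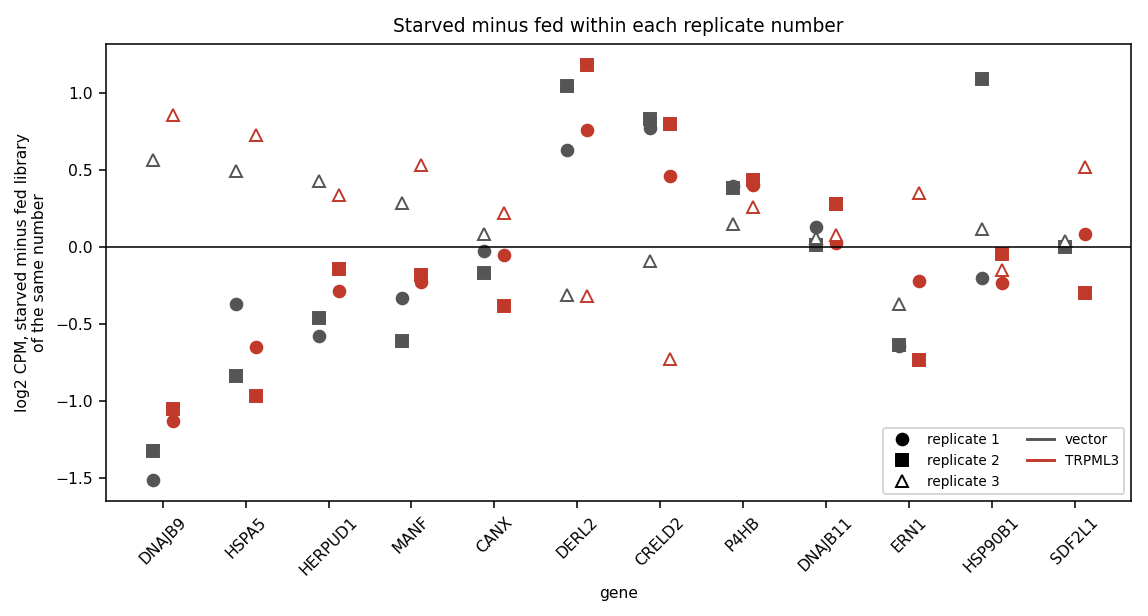
Starved minus fed log2 CPM (vertical axis) between libraries of the same replicate number, for 12 genes chosen after their values were seen. Filled circles and squares are replicates 1 and 2, open triangles replicate 3, grey vector and red TRPML3. For DNAJB9, HSPA5, HERPUD1 and MANF, replicates 1 and 2 lie below 0 and replicate 3 above it, and for DERL2 and CRELD2 the sides are exchanged.

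HSPA5 was one of the 7 genes whose replicate 3 ran the opposite way, with DNAJB9, MANF, CANX, CRELD2, HERPUD1 and DERL2. Starved minus fed HSPA5 was -0.37 and -0.84 in vector replicates 1 and 2 and 0.49 in replicate 3, and -0.65, -0.97 and 0.72 in TRPML3 replicates 1, 2 and 3. In the fit with separate terms its starvation effect was -0.73 ± 0.33 in replicates 1 and 2 (adjusted p = 0.222, edgeR) and 0.63 ± 0.47 in replicate 3 (adjusted p = 0.539).

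Across the 12 libraries, the levels of the other 35 genes were set against that of HSPA5, and r took both signs. This was examined after the values had been seen, over 35 relations, with p-values adjusted over the 18029 other tested genes. MANF had Pearson's r of 0.89 with HSPA5 (permutation p = 0.000150, adjusted p = 0.0929) and Spearman's rho of 0.84 (permutation p = 0.00120, adjusted p = 0.173). PDIA4 had r of 0.86 (permutation p = 0.000520, adjusted p = 0.0995) and rho of 0.85 (permutation p = 0.00107, adjusted p = 0.169). HERPUD1 had r of 0.80 (permutation p = 0.00156, adjusted p = 0.118) and rho of 0.74 (permutation p = 0.00751, adjusted p = 0.240). None passed the adjustment. These 3 of 35 had r above 0.8, against 0.876% of all genes, and 5 of 35 had r above 0.7, against 3.28%.

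Leaving out vector fed replicate 3 and TRPML3 fed replicate 2, the libraries farthest from the median of HSPA5, gave r of 0.80, 0.74 and 0.59 for MANF, PDIA4 and HERPUD1. After subtraction of each replicate number's mean, r was 0.90, 0.77 and 0.69. Over all 12 libraries, DNAJB9 had r of 0.73, SDF2L1 of 0.72 and HSP90B1 of 0.14. The lowest r were -0.71 for CRELD2 (permutation p = 0.0108, adjusted p = 0.204) and -0.64 for DERL2 (permutation p = 0.0243, adjusted p = 0.249). CRELD2 fell into separate sets, so its r is uncertain. Its 5 libraries at 13.5 to 16.0 CPM had HSPA5 at 2344 to 5497 CPM. The other 7, at 22.0 to 24.8 CPM, had HSPA5 at 1177 to 2815 CPM. Both HSPA5 and HERPUD1 carry an exact match to a printed element, MANF has no exact match in its window, and HSP90B1, with a low r, holds 2. Near matches were not counted, and a relation between elements and these correlations was not tested.

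**Figure D5:**
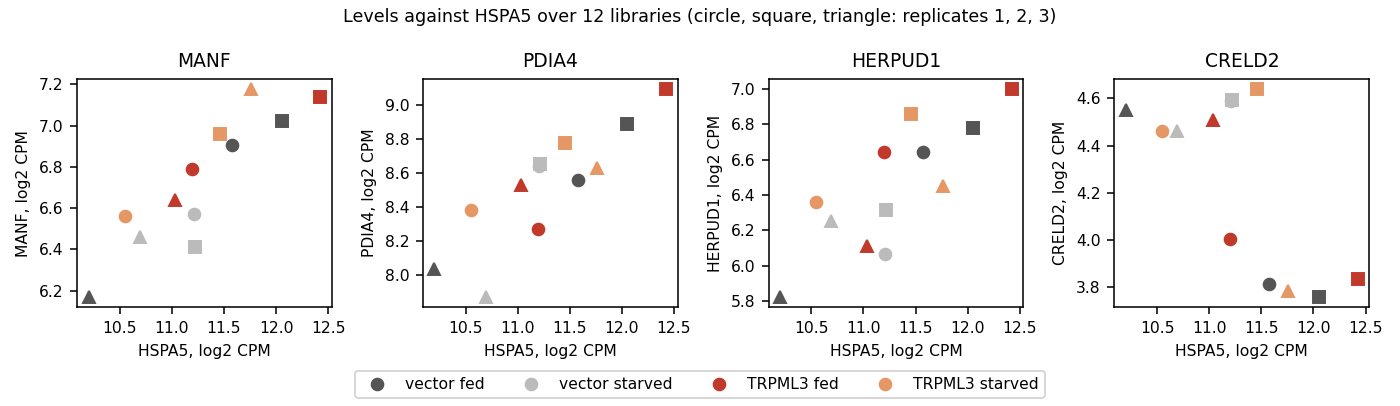
Log2 CPM of MANF, PDIA4, HERPUD1 and CRELD2 (vertical axes) against log2 CPM of HSPA5 (horizontal axes) in the 12 libraries, the genes being chosen after their values were seen. Colours are groups, and circles, squares and triangles are replicates 1, 2 and 3. The first 3 genes are higher where HSPA5 is higher (r of 0.89, 0.86 and 0.80), and CRELD2 falls into a high and a low set.

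Whether these genes follow the amount of TRPML3 transcript was examined over the 6 TRPML3 libraries for 6 genes, with exact two-sided permutation tests adjusted over these 6 relations. Pearson's r with MCOLN3 was -0.61 for HSPA5 (exact p = 0.197, adjusted p = 0.567; rho -0.54, exact p = 0.297). DNAJB9 had the r farthest from 0, at -0.88 (exact p = 0.0528, adjusted p = 0.317), with rho of -0.77 (exact p = 0.103). Its 6 values fall into a set of 3 at 39.1 to 51.8 CPM and a set of 3 at 85.4 to 107 CPM. The r of DNAJB9 is uncertain to that extent. The other 4 were HERPUD1 (-0.48), SDF2L1 (-0.40), HSP90B1 (-0.010) and XBP1 (0.52), with adjusted p-values of 0.567 to 1 (exact permutation). None passed, and r was negative for these genes except XBP1. In the 4 libraries left without TRPML3 fed replicates 1 and 2, r was -0.49 for HSPA5, -0.83 for DNAJB9, 0.30 for HERPUD1 and 0.98 for XBP1. XBP1 was nearly flat in these 4, at 86.7 to 88.9 CPM, so this r describes a very small difference. Over all 6 libraries, XBP1 in TRPML3 fed replicate 2 stood apart at 51.8 CPM. HSP90B1 also left a gap, with replicate 1 at 2827 CPM (fed) and 2411 CPM (starved) and the others at 3678 CPM or above. The r of both genes over 6 libraries is uncertain to that extent. MCOLN3 also differed between the fed and starved library of each number, so serum state and transcript amount cannot be told apart within a number.

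Other genes of the pathway were counted from 9 lists written from general knowledge. None of their genes passed in any of the 7 comparisons with all 12 libraries in edgeR's quasi-likelihood test, and without replicate 3 some passed for average starvation, as given below. One list holds ATF4, CHOP (DDIT3) and genes placed with them, and PERK activity was not measured. This list leaned higher with TRPML3. Above 0 were 13 of 15 in fed cells (against 48.9% of all genes, median 0.24) and 14 of 15 in starved cells (against 49.2%, median 0.38). On average 15 of 15 were above 0 (against 48.1%, median 0.30). An earlier look at these data had shown this pattern, so the counts are no independent evidence of it. On average, 2 of 15 had an unadjusted p under 0.05, against 2.62% of all genes. They were PPP1R15A, a phosphatase subunit that reverses the PERK signal (0.43, unadjusted p = 0.0285), and ATF4 itself (0.53, unadjusted p = 0.0339), both at an adjusted p of 1.00. Without replicate 3 only ATF4 of the 15 had an unadjusted p under 0.05, at 0.80 (unadjusted p = 0.000143, adjusted p = 0.257, edgeR). PPP1R15A was then at 0.23 (unadjusted p = 0.0621, edgeR). The list had 14 of 15 above 0, against 49.1% of all genes, and a median of 0.21.

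Of all genes, 48.9% were above 0 for TRPML3 in fed and 49.2% in starved cells, the background of each list here. Of 17 genes of ER export and retrieval, 16 had a positive log2 fold change for TRPML3 when fed (median 0.18) and 11 when starved (0.078). SEC23A, a COPII coat subunit, had the smallest p (0.81 in fed cells, unadjusted p = 0.00297, adjusted p = 1, edgeR). Without replicate 3 the counts for ER export were 13 and 10 of 17, against 49.5% and 48.5% of all genes, with medians of 0.15 and 0.0089. Of 18 genes of the translocon, signal recognition particle and TRAP complex, 14 and 10 were above 0 (medians 0.10 and 0.015), and of 17 glycosylation genes 11 and 10 (0.11 and 0.059). The 17 membrane insertion genes had 7 and 8 above 0 (-0.051 and -0.019), and the 20 other degradation genes 10 and 10 (-0.0083 and 0.0079). Other folding enzymes (11 and 14 of 20), ER-phagy receptors (7 and 6 of 10) and other signalling genes (9 and 8 of 17 tested) had medians between -0.021 and 0.068. Without replicate 3, medians changed sign for membrane insertion (0.027 and 0.069, with 10 and 13 of 17 above 0), for other folding enzymes in fed cells (-0.078) and for other degradation genes in starved cells (-0.024).

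With starvation, averaged over plasmids, 13 of the 17 membrane insertion genes were higher (median 0.24), led by CCDC47, a subunit of the PAT insertion complex (0.39, unadjusted p = 0.00250, adjusted p = 0.349, edgeR), and EMC10 (0.96, adjusted p = 0.367). The ATF4 and CHOP list had 5 of 15 higher and a median of -0.44, with DDIT4 at -1.02 (unadjusted p = 0.00357, adjusted p = 0.352, edgeR). HSPA13, an Hsp70 relative, was at -0.92 and the coat subunit SEC24D at -0.62 (adjusted p-values of 0.363 and 0.349). None of these passed with all 12 libraries, and the median over all genes was 0.0062, with 50.7% of them above 0.

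Without replicate 3, 14 of 151 list entries passed for average starvation in edgeR's quasi-likelihood test, against 4.49% of all genes, 9 higher and 5 lower. In the ATF4 and CHOP list 4 of 15 passed and the median was -0.29. CEBPG, a partner of ATF4, rose by 1.72 on the log2 scale (adjusted p = 0.0248). DDIT4 fell by 1.29 (adjusted p = 0.0259), VLDLR by 1.24 and the stress-induced factor ATF3 by 1.16. Of 20 other degradation genes 4 passed, with UBXN8, NPLOC4 and EDEM3 higher by 1.10, 1.04 and 1.39, and the ligase RNF139 at -1.45. The translocon had 2 of 18 (SEC61A1, its channel subunit, at 0.61 and SRPRB at 0.91). Membrane insertion had 1 of 17, EMC10 at 1.10 (adjusted p = 0.0333), and its median was 0.40. Of its genes 14 were above 0, against 8760 of 18052 genes. ER export had 2 of 17, with SEC24D at -0.73 (adjusted p = 0.0485) and SAR1B at 0.78, and other folding enzymes had POFUT1 at 1.13. CCDC47 and HSPA13 did not pass (adjusted p of 0.130 and 0.0992). With the replicate number as a block in these libraries, 0 genes of the whole table passed.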

How the data were processed

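RNA-seq of polyadenylated RNA (KAPA hyper prep, per the labels) was measured in 12 libraries, 3 biological replicates in each of 4 groups, so p-values measure the spread between these cultures. The deposited raw counts per gene were used as whole-number counts. The submitters' processing notes name FastQC, fastp, HISAT2, StringTie, DESeq2 and GRCh38 with no role, and counts estimated by StringTie and then rounded cannot be told apart from counted reads. A second deposited table holds a normalised signal, the count divided by a size factor per library by the authors, used only for limma-trend on log2 of the value plus 1. Strand handling is not given in the sources used here.

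Genes were tested in R 4.3.3 with edgeR 4.0.16 (TMM, filterByExpr, robust quasi-likelihood test, 1 coefficient per group, 8 residual degrees of freedom) and Benjamini-Hochberg adjustment at 0.05 over 18030 of 41878 rows. Errors on fold changes are standard errors from this fit, and log2 CPM used a prior count of 2. The test was tried on simulated data. Alternatives were limma-trend 3.58.1, the DESeq2 1.42.0 Wald test, other scalings and filters, a replicate block and left-out libraries.

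The 36 genes, the pathway and marker lists and the alternatives were chosen with earlier results of these data known. The text names 8 stress readouts and the 3 genes of the 36 with the smallest p in each comparison, and others are named as chosen after their values were seen. Further genes named from the non-overlapping groups, the variable genes and the replicate 3 pattern were chosen in that way. The replicate numbers come from the labels. Deviations of same-numbered libraries correlated between plasmids at 0.11, 0.15 and 0.33 in fed cells and at 0.13, 0.095 and 0.32 in starved cells. Between serum states they correlated at -0.076 to 0.0075. The main tests used no pairing by number, which entered only through the replicate block among the alternatives. Starved minus fed differences by number are therefore a description of libraries with the same label.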

Additional observations from a re-analysis of the deposited data

Results flagged for a closer look

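For 3 of the 36 genes the starvation response in replicate 3 differed from that in replicates 1 and 2, by a test of the difference itself that was added after the pattern was seen (edgeR's quasi-likelihood test, adjusted over all genes). The groups compared are replicate numbers, not groups of the study. The difference was 1.98 ± 0.26 on the log2 scale for DNAJB9 (adjusted p = 0.00598), -1.22 ± 0.20 for DERL2 (adjusted p = 0.0103) and -1.09 ± 0.28 for CRELD2 (adjusted p = 0.0466). It passed for 8.61% of all tested genes. The mitochondrial share of counts was also highest in the replicate 3 libraries (4.83 to 5.70%, above every other library), and its part in these differences was not tested.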

How the results depend on the processing

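TRPML3 against vector is written TRPML3 fed and TRPML3 starved, and starved against fed is written serum vector and serum TRPML3. The DESeq2 Wald test called more genes of the whole table than the quasi-likelihood test: 30 (TRPML3 fed), 43 (TRPML3 starved), 43 (serum vector), 89 (serum TRPML3), 27 (interaction), 29 (average TRPML3) and 273 (average starvation). Of the 36 genes it called 1, ERO1A, for TRPML3 starved, serum TRPML3 and average starvation. With the replicate block, 0 genes of the table passed for TRPML3 fed, TRPML3 starved and serum vector (2, 1 and 1 without it) and 1 for average TRPML3 (2 without it). The block changed no call among the 36 genes with all 12 libraries. With library size only, average starvation was -0.0040 for HSP90B1 and -0.031 for SDF2L1. With each library or each replicate number left out in turn (15 fits), genes called ran from 0 to 4 (TRPML3 fed), 0 to 5 (TRPML3 starved), 0 to 2 (serum vector), 0 to 3 (serum TRPML3), 0 to 3 (interaction), 0 to 6 (average TRPML3) and 0 to 810 (average starvation, highest without replicate 3). Of the 36, 0 to 3 were called for average starvation. Their median ran from -0.024 to 0.20 (TRPML3 starved) and from -0.092 to 0.12 (interaction). For average TRPML3, HSPA5 ran from -0.024 to 0.56, DNAJB9 from -0.081 to 0.26, PDIA4 from -0.018 to 0.35, SDF2L1 from -0.18 to 0.15 and XBP1 from -0.12 to 0.12. For average starvation, HSPA5 ran from -0.73 to 0.044, HSP90B1 from -0.12 to 0.22, PDIA4 from -0.19 to 0.044, SDF2L1 from -0.053 to 0.17 and XBP1 from -0.20 to 0.017. The correlation of HERPUD1 with MCOLN3 was 0.30 without the 2 libraries farthest from the median. Under 8 processing alternatives, 30 of the 36 genes kept their sign for TRPML3 fed and 27 for TRPML3 starved, and under the left-out libraries 13 and 12 did. Other than where the construction shows it (fewer libraries), the cause was not tested. For HSPA5 the upper ends of the 95% intervals were 2.49-fold for TRPML3 fed, 2.58-fold for TRPML3 starved and 2.03-fold for average TRPML3. Differences within these intervals are compatible with the values of these libraries.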
